A study of Homo sapiens with 6 samples.

Results

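The core machinery of RNA interference and microRNA processing was examined in TC71 cells after knockdown of EHD1. It comprised 10 genes, taken by symbol from a table of 60676 genes: the nuclear Microprocessor pair DROSHA and DGCR8, the export receptor XPO5, the cytoplasmic nuclease DICER1 with its partners TARBP2 and PRKRA, and the Argonautes AGO1, AGO2, AGO3 and AGO4. All 10 were found and all 10 were among the 16785 genes with enough counts to test. TC71 is an established Ewing sarcoma line that carries the EWS-FLI1 fusion. Messenger RNA was sequenced from 3 libraries of cells with a doxycycline (Dox)-inducible lentiviral non-targeting shRNA (shNTC+Dox) and 3 of cells with an inducible shRNA against EHD1 (shEHD1+Dox), and both groups received Dox at 0.5 µg/ml for 3 days. EHD1 is an endocytic recycling ATPase, and the comparison asks which transcripts differed between cells with the EHD1 shRNA and control cells. Loss of EHD1, other effects of that shRNA and differences between the engineered lines cannot be told apart in this design. Below, words such as rose, fell or after knockdown only compare shEHD1+Dox with shNTC+Dox libraries. Both groups transcribed an shRNA that these same proteins process, and libraries without Dox were not analysed here. Which EHD1 shRNA was sequenced, and whether the 3 libraries of a group were separate cultures, is not given in the sources used here, so the p-values measure the spread between these libraries, which may be technical.

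MicroRNAs are cut from long primary transcripts in the nucleus by DROSHA held by its RNA-binding partner DGCR8, carried to the cytoplasm by exportin 5 (the product of XPO5), and cut again by DICER1 near the loop. The short duplex is handed to an Argonaute, which keeps a single strand and uses it to find target messenger RNAs. An shRNA made from a vector follows the same route, from the export step or, in microRNA-like designs, from the Microprocessor step. DGCR8 is also known for a feedback loop in which the Microprocessor cuts hairpins inside the DGCR8 transcript itself.

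Depth was 22711235 to 30582187 counts per library, and EHD1 fell to 29.6% of the shNTC+Dox level in the shEHD1+Dox libraries (27.1 ± 0.809 to 8.02 ± 1.18 CPM, SD, n = 3 per group). CPM, counts scaled to a common library size, are given with TMM normalization throughout. The Ewing sarcoma genes NKX2-2, NR0B1, STEAP1, CD99, LIPI and PRKCB had counts in every library, STEAP1 being lower (log2 fold change -0.43, edgeR adjusted p = 0.00443) and CD99 higher (0.33, edgeR adjusted p = 0.0293) in shEHD1+Dox, and the groups did not overlap for NKX2-2 (-0.40, edgeR adjusted p = 0.0650) or PRKCB (0.15, edgeR adjusted p = 0.143). CD99 lost its call in 5 of the alternative fits described below. Of the markers of other cell types, CD3E, VWF, MYOD1 and DES had 0 counts in all libraries, EPCAM had 0 to 5, CDH1 0 to 2 and PECAM1 0 to 3, and the blood gene PTPRC had 5, 11 and 9 counts in the controls and 5, 0 and 0 after knockdown. Of 3 fibroblast genes, COL1A1 had 317 to 695 counts and LUM 26 to 73, and DCN had 104 to 151 counts in the controls and 65 to 68 after knockdown (log2 fold change -1.01, edgeR adjusted p = 0.00778). The part of these markers in the results was not tested. shNTC+Dox replicate 3 stood apart from the other controls on the second principal component (-38.7 against 32.8 and 29.1), which held 22.01% of the variance. On the first component (40.8%), which separated the groups, it was also apart, at -55.2 against -23.9 and -21.3. The knockdown libraries lay at 31.8 to 34.8 there. In these bulk samples, fewer cells of a type and less RNA per cell cannot be told apart.

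Within the machinery 3 members changed, DGCR8 and PRKRA being lower and AGO3 higher in shEHD1+Dox. The 3 act at different steps of the pathway. DGCR8 recognises primary transcripts in the nucleus, PRKRA (PACT) binds DICER1 in the cytoplasm, and AGO3 is an Argonaute. By the quasi-likelihood test of edgeR with Benjamini-Hochberg adjustment at 0.05, 3 of 10 members passed (30%), against 17.3% of all genes tested. The members and the pathway lists below were chosen with earlier results of these data known, so such shares are not independent of the data. For single directions, 1 member was higher against a background of 8.59%, and 2 were lower against 8.75%. With a 2-fold change also required, 0 members were called, against 2.82% of all genes, and at an unadjusted p under 0.05 the same test gave 3 members, against 32.3% of all genes. The largest of the 7 changes that did not pass was 0.18 in size on the log2 scale. In the middle of the 10 members the log2 fold change was -0.06 (median), against 0.00080 for all genes tested, while the median size of change was 0.129 for the members and 0.232 for all genes.

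**Figure D1:**
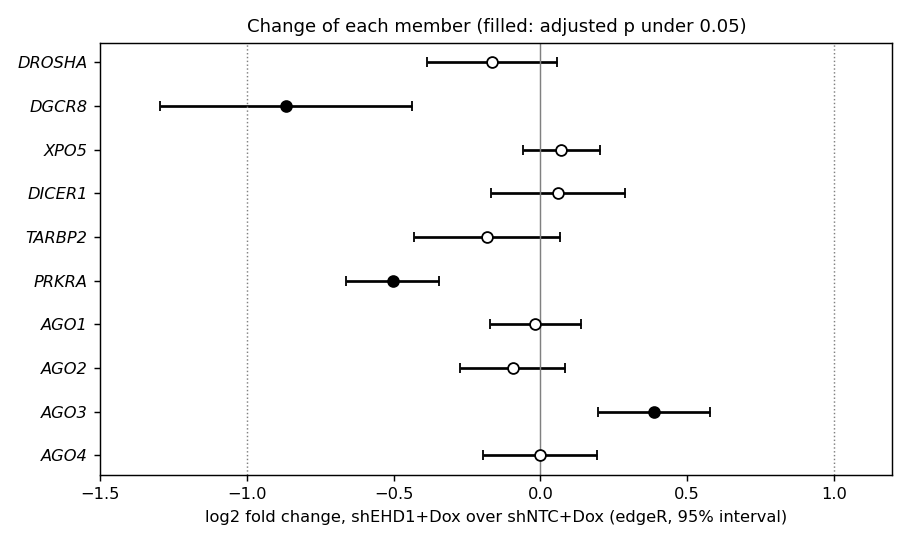
The log2 fold change of each of the 10 members (shEHD1+Dox over shNTC+Dox) is plotted on the horizontal axis with its 95% interval from edgeR, n = 3 per group, and filled points had an adjusted p under 0.05. DGCR8 and PRKRA lay below 0 and AGO3 above it, the 7 other intervals crossed 0, and dotted lines mark a 2-fold change.

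DGCR8 (ENSG00000128191, chr22:20080221-20111877 on hg38, plus strand) encodes the double-stranded RNA-binding subunit of the Microprocessor and showed the largest change of the 10. Its level in CPM was 78.7, 72.7 and 107.8 in the controls (shNTC+Dox) and 41.6, 58.5 and 42.1 in the knockdown libraries (shEHD1+Dox). Every knockdown library lay below every control, and each group had a library that stood above its 2 companions. The mean went from 86.4 ± 18.8 to 47.4 ± 9.59 CPM (SD, n = 3), a log2 fold change of -0.87 (SE 0.18, 95% interval -1.30 to -0.44, edgeR adjusted p = 0.0188). This is 54.9% of the control level, with an interval of 40.7% to 73.9%. Without shNTC+Dox replicate 3, the control highest for DGCR8, the log2 fold change was -0.68 (edgeR adjusted p = 0.0325). The call was lost without shEHD1+Dox replicate 1 (-0.78, edgeR adjusted p = 0.0720) and without shEHD1+Dox replicate 3 (-0.79, edgeR adjusted p = 0.0719).

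The DGCR8 transcript carries 2 microRNA hairpins in its exon 2, MIR3618 in the 5′ UTR and MIR1306 in the coding sequence, both on the plus strand. Their mature sequences, from RefSeq on GRCh38.p14, are shown because they are the microRNAs read from this messenger RNA and do not share a seed. Capitals mark the seed, bases 2 to 8 counted from the 5′ end.
hsa-miR-3618: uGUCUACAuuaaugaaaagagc
hsa-miR-1306-5p: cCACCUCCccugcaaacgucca
hsa-miR-1306-3p: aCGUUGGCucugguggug
They lie at chr22:20085797-20085818, chr22:20086072-20086093 and chr22:20086112-20086129. The rows for MIR3618 and MIR1306 held 1 count in each of the 6 libraries, so neither microRNA could be compared at this depth, and small RNAs were not what the library kit captured. The hairpins share 88 and 85 bases with DGCR8 exons. The other overlaps of DGCR8 are on the opposite strand, which this unstranded kit does not separate. AC006547.2 shares 526 bases and had 5 counts over all libraries, and TRMT2A shares 3 bases and had a fitted log2 change of -0.11 (edgeR adjusted p = 0.431).

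DROSHA (ENSG00000113360, chr5:31400494-31532196, minus strand), the nuclease that DGCR8 holds, did not pass the test. It had 88.2, 81.5 and 83.7 CPM in the controls and 66.5, 86.4 and 73.3 CPM in the knockdown libraries. The lower level came from 2 of the 3 knockdown libraries and the groups overlapped, with a log2 fold change of -0.16 (SE 0.10, 95% interval -0.39 to 0.06, edgeR adjusted p = 0.285). The ratio of DROSHA to DGCR8 CPM was 1.12, 1.12 and 0.776 in the controls and 1.60, 1.48 and 1.74 after knockdown. All 3 knockdown ratios were above all 3 control ratios (mean 1.01 ± 0.199 against 1.61 ± 0.132, SD, n = 3, no test). The ratio holds the DGCR8 counts already tested above, so it is not separate support for the change of DGCR8. The lowest of the 6 ratios was that of shNTC+Dox replicate 3.

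XPO5 (ENSG00000124571, chr6:43522334-43576038, minus strand) encodes exportin 5, the RAN-dependent carrier of precursor hairpins. It had 172.4, 175.7 and 176.7 CPM in the controls and 184.0, 181.6 and 185.8 CPM in the knockdown libraries. The groups were close together and still did not overlap, since both had a small spread. The log2 fold change was 0.07 (SE 0.06, 95% interval -0.06 to 0.20, edgeR adjusted p = 0.438). XPO5 was thus 1 of 4 members whose groups did not overlap (2 higher, 2 lower), and 39.3% of all genes tested had groups that did not overlap. Its exons share 348 bases with POLR1C on the other strand, whose log2 fold change was -0.09 (edgeR adjusted p = 0.662).

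DICER1 (ENSG00000100697, chr14:95086228-95158010, minus strand) encodes the nuclease that cuts precursor hairpins and long double-stranded RNA to size. It had 150.3, 147.1 and 156.4 CPM in the controls and 141.7, 184.6 and 147.2 CPM in the knockdown libraries. shEHD1+Dox replicate 2 was high and the other knockdown libraries lay near or below the lowest control, so that the groups overlapped. The log2 fold change was 0.06 (SE 0.10, 95% interval -0.17 to 0.29, edgeR adjusted p = 0.717). An intron of DICER1 holds MIR3173, with mature arms at chr14:95137961-95137982 and chr14:95137923-95137944 on the minus strand, shown for comparison with the exonic hairpins of DGCR8 (seed in capitals).
hsa-miR-3173-5p: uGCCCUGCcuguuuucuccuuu
hsa-miR-3173-3p: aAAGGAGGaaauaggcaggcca
The 5 mature sequences printed for DGCR8 and DICER1 have 5 different seeds.

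**Figure D2:**
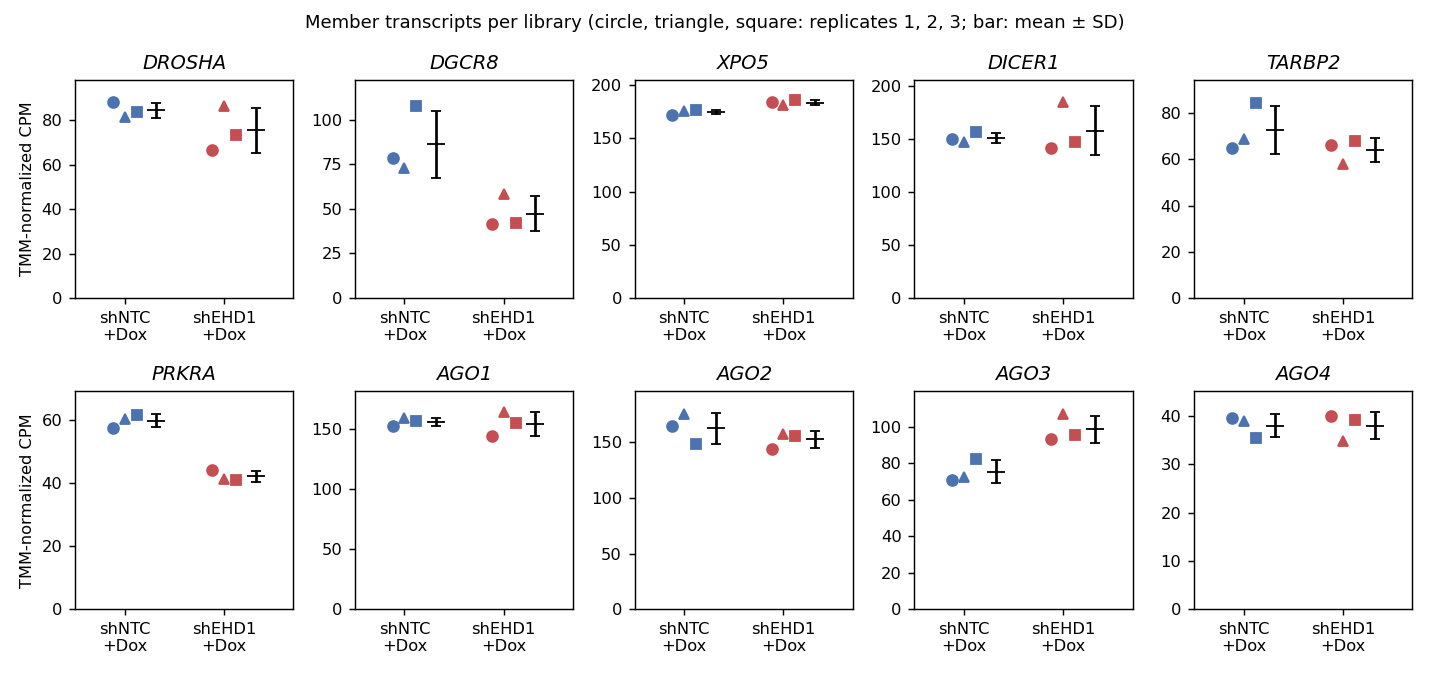
Each panel plots 1 member, with the TMM-normalized CPM on the vertical axis from 0 and the libraries of each group as points (circle, triangle and square for replicates 1, 2 and 3) beside the mean ± SD, n = 3. The groups separate for DGCR8, PRKRA, AGO3 and XPO5 and overlap for the other 6 members.

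PRKRA and TARBP2 encode related proteins with double-stranded RNA-binding domains, and both attach to DICER1. PRKRA (ENSG00000180228, chr2:178431292-178451512, minus strand) is also known as an activator of the kinase PKR. It had 57.7, 60.5 and 61.6 CPM in the controls and 44.3, 41.3 and 41.2 CPM in the knockdown libraries. The libraries of each group were tightly placed and far from those of the other group. The mean went from 59.9 ± 2.01 to 42.3 ± 1.79 CPM (SD, n = 3), a log2 fold change of -0.50 (SE 0.07, 95% interval -0.66 to -0.34, edgeR adjusted p = 0.00241), or 70.6% of the control level. PRKRA passed the test in all 11 alternative fits, which left out each library in turn or changed the scaling, filter, tool or block, with log2 fold changes of -0.54 to -0.48. PRKRA shares 1068 exon bases, 8.85% of its exons, with the antisense long non-coding RNA CHROMR, whose reads an unstranded library cannot separate there. CHROMR itself had 30.3 ± 0.723 and 30.9 ± 1.30 CPM (SD, n = 3), a fitted log2 change of 0.03 (edgeR adjusted p = 0.832).

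TARBP2 (ENSG00000139546, chr12:53500921-53506431, plus strand) encodes TRBP, the other partner of DICER1. It had 64.7, 68.8 and 84.5 CPM in the controls and 66.3, 58.0 and 67.7 CPM in the knockdown libraries. The control mean was raised by replicate 3 and the groups overlapped, with a log2 fold change of -0.18 (SE 0.11, 95% interval -0.43 to 0.07, edgeR adjusted p = 0.292). The ratio of TARBP2 to PRKRA CPM was 1.12, 1.14 and 1.37 in the controls and 1.49, 1.41 and 1.64 after knockdown. These ratios did not overlap (mean 1.21 ± 0.140 against 1.51 ± 0.120, SD, n = 3, no test), and the control nearest to the knockdown libraries was replicate 3. They hold the PRKRA counts already tested above and are not separate support for the change of PRKRA.

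**Figure D3:**
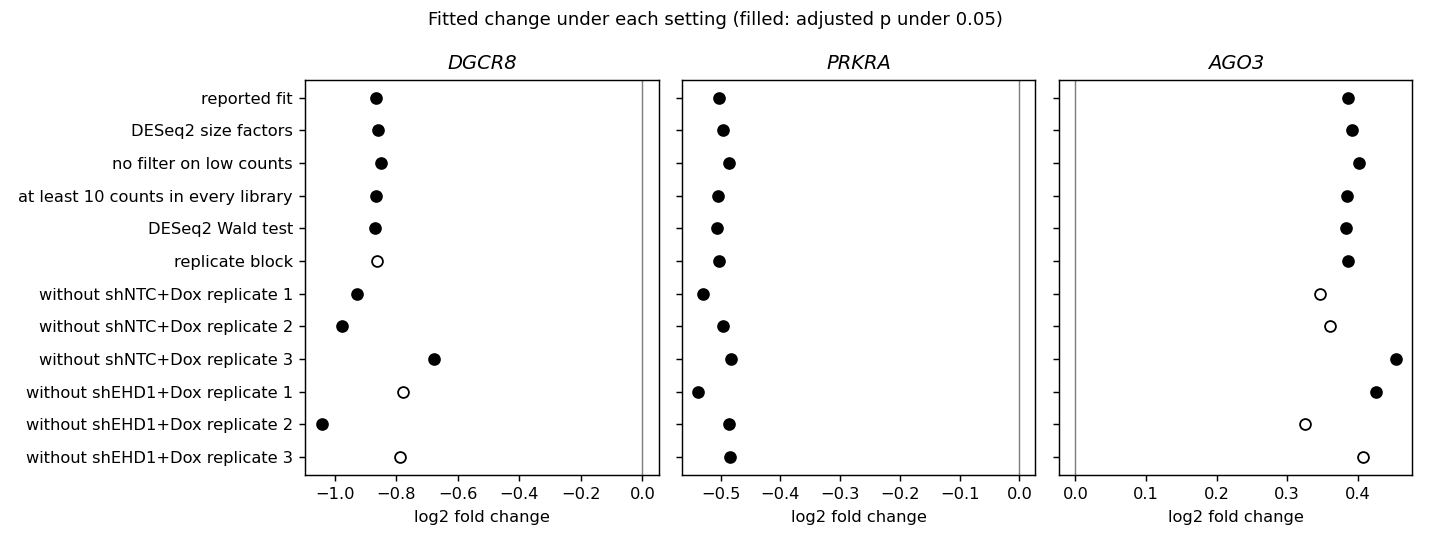
The fitted log2 fold change of DGCR8, PRKRA and AGO3 (horizontal axes, each with its own range) is shown for the reported fit and 11 alternatives (rows), with filled points where the adjusted p was under 0.05. PRKRA is filled in all 11 alternatives, DGCR8 in 8 and AGO3 in 7, and no point crosses 0.

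The Argonautes bind the mature strand, and AGO2 is the member best known for cutting fully paired targets. AGO3 (ENSG00000126070) was the only Argonaute that passed the test. It had 71.2, 72.8 and 82.6 CPM in the controls and 93.4, 106.9 and 95.8 CPM in the knockdown libraries. All knockdown libraries were above all controls, the control closest to them being replicate 3. The mean went from 75.5 ± 6.16 to 98.7 ± 7.22 CPM (SD, n = 3), a log2 fold change of 0.39 (SE 0.08, 95% interval 0.19 to 0.58, edgeR adjusted p = 0.0161), or 30.7% above the control level. The change kept its direction without any single library (0.33 to 0.45) and lost its call without shNTC+Dox replicate 1, shNTC+Dox replicate 2, shEHD1+Dox replicate 2 or shEHD1+Dox replicate 3, with edgeR adjusted p from 0.0507 to 0.0643.

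AGO1 (ENSG00000092847) had 152.2, 159.0 and 157.1 CPM in the controls and 144.3, 163.9 and 154.7 CPM in the knockdown libraries. AGO2 (ENSG00000123908) had 164.0, 175.3 and 147.9 CPM in the controls and 143.9, 157.1 and 155.6 CPM in the knockdown libraries. AGO4 (ENSG00000134698) had 39.7, 39.0 and 35.4 CPM in the controls and 40.0, 34.8 and 39.1 CPM in the knockdown libraries. The groups overlapped for each of these 3 genes. Their log2 fold changes were -0.02 (95% interval -0.17 to 0.14, edgeR adjusted p = 0.892) for AGO1, -0.09 (-0.27 to 0.09, edgeR adjusted p = 0.456) for AGO2 and -0.0019 (-0.20 to 0.19, edgeR adjusted p = 0.991) for AGO4. The intervals reach changes as large as -0.27, so an equal level was not shown.

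Summed over the 4 Argonautes, the level was 432 ± 12.3 CPM in the controls and 443 ± 20.6 CPM in the knockdown libraries (SD, n = 3), and the groups overlapped. On the scale of CPM per kilobase of annotated exon, AGO3 made up 11.3%, 11.1% and 13.4% of the summed Argonaute level in the controls and 15.1%, 16.1% and 14.8% after knockdown. Its share did not overlap between the groups (mean 11.9% ± 1.28 against 15.4% ± 0.703, SD, n = 3, no test). The shares of AGO1 (37.0% and 36.2%), AGO2 (34.1% and 31.6%) and AGO4 (17.0% and 16.9%) overlapped. Relative to AGO1, AGO3 had a CPM ratio of 0.468, 0.458 and 0.526 in the controls and 0.647, 0.652 and 0.619 after knockdown, without overlap. The share and the ratio both hold the AGO3 counts already tested above, so they are not separate support for its change.

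AGO4, AGO1 and AGO3 stand in a row on the plus strand of chromosome 1, at chr1:35808016-35857890, chr1:35869808-35930532 and chr1:35930718-36072500 on hg38, and AGO3 begins 185 bases past the end of AGO1. The stretch between them is shown for the short distance between these genes. Its part in the change of AGO3 was not tested, and the changes of AGO1 and AGO3 were not compared by a test. The RefSeq promoter window of AGO3 lies past this stretch, from chr1:35930855. The stretch itself is chr1:35930533-35930717 (hg38, plus strand), with the 10 CpG dinucleotides in capitals and a GC content of 48.6%.
AGO1 to AGO3: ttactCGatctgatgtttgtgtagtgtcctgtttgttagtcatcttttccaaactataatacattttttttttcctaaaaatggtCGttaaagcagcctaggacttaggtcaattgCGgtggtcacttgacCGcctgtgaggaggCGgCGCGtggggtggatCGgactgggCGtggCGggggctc
Most of the CpG dinucleotides fall towards the AGO3 end. Of 11 other protein-coding genes within 250 kb of the row, 10 were tested and 1 passed, C1orf216, at 47.97 ± 4.95 CPM in the controls and 34.9 ± 0.261 CPM in the knockdown libraries (SD, n = 3, log2 fold change -0.46, edgeR adjusted p = 0.00884). The direction of C1orf216 was opposite to that of AGO3. TFAP2E (-0.76), CLSPN (-0.62) and TEKT2 (0.49) had larger fitted changes than AGO3 and did not pass (edgeR adjusted p = 0.105, 0.108 and 0.477). The 10 tested neighbours had a median log2 fold change of -0.04, and 10% of them passed, against 17.3% of all genes.

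**Figure D4:**
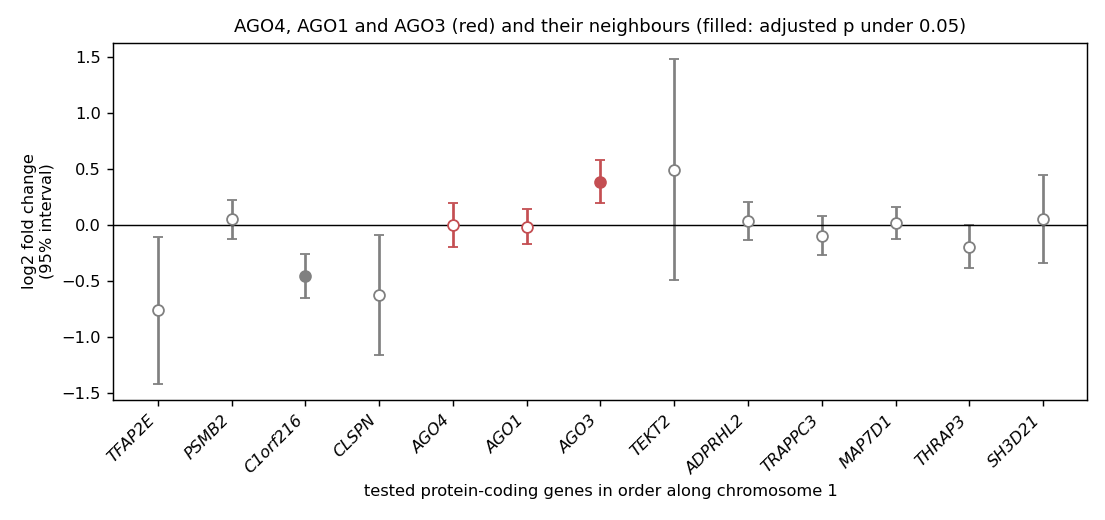
The log2 fold change (vertical axis, with the 95% interval from edgeR, n = 3 per group) is plotted for AGO4, AGO1 and AGO3 (red) and the 10 tested protein-coding neighbours (grey) in their order along the chromosome, filled where the adjusted p was under 0.05. AGO3 is the filled point above 0 and C1orf216 the filled point below it.

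Levels can be compared between members only per length, here as CPM per kilobase of the union of annotated exons in shNTC+Dox. XPO5 was highest at 20.6 ± 0.269, followed by TARBP2 at 17.8 ± 2.55, DGCR8 at 11.8 ± 2.57, AGO1 at 11.1 ± 0.248, DROSHA at 10.9 ± 0.435 and AGO2 at 10.2 ± 0.871 (SD, n = 3). DICER1 had 6.83 ± 0.214, AGO4 5.12 ± 0.312, PRKRA 4.97 ± 0.166 and AGO3 3.57 ± 0.291. XPO5 and TARBP2 overlapped, as did each neighbouring pair from DGCR8 to AGO2, and AGO4 and PRKRA. In shEHD1+Dox, DGCR8 went from place 3 to place 7 in this order (6.47 ± 1.31), and AGO3 (4.67) came above PRKRA (3.51), which was then lowest. The order depended on the length used. With the longest transcript in place of the exon union, TARBP2 was highest in shNTC+Dox, at 39.2 ± 5.62 (SD, n = 3). XPO5 then followed without overlap, at 32.9 ± 0.429. On that scale PRKRA stood above DICER1, AGO1 and AGO2 in shNTC+Dox, at 15.4 against 11.9, 11.4 and 11.1.

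The spread within groups was not shared evenly by the libraries. shNTC+Dox replicate 3 was the highest control for 6 members (AGO3, DICER1, DGCR8, XPO5, TARBP2 and PRKRA) and the lowest for AGO2 and AGO4. shEHD1+Dox replicate 2 was the highest knockdown library for 6 members (AGO1, AGO2, AGO3, DICER1, DROSHA and DGCR8), and shEHD1+Dox replicate 1 was the lowest for the same 6. The part of these libraries in the members' changes was measured by leaving each out, as given above for DGCR8 and AGO3.

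Earlier results of these data had singled out the 7-base word AAGCTCT in 3′ UTRs, whose carriers had a lower median log2 fold change (-0.07) than other genes (0.02). Since the word was chosen from these same libraries, this difference is not evidence about the word. Carriers and other genes were not matched for 3′ UTR length. The word occurred in 14.01% of the 12950 genes whose 3′ UTR had 50 bases or more, and 2.11% held more than a single match. Among the members, PRKRA held 2 matches in a 3′ UTR of 683 bases, AGO3 held 1 in 16755 bases and AGO2 held 1 in 11888 bases, while the other 7 members held 0. The 3′ UTR of DGCR8, with 0 matches, had 1764 bases. Whether the word had a part in the change of any member was not tested. The sites are shown with 9 bases on each side, for PRKRA (its first match) and AGO3 alone, that of AGO2 not being printed here, and capitals mark the word (GENCODE 44, transcript strand).
PRKRA: gttgttattAAGCTCTttttaatgg
AGO3: aacaaagcgAAGCTCTgtctcaata
The EHD1 3′ UTR held 0 matches, and a match is a description of these letters, not a site at which anything was measured to bind.

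RefSeq promoters (300 bases, from 250 before to 50 after the start, GRCh38.p14) were found for 9 members, 17 windows in all since some genes have several starts. That of DGCR8 had a GC content of 80.3% and 57 CpG dinucleotides, against medians of 58.7% and 14 over 35116 promoters, and 2.30% and 0.211% of promoters reached these values. High values were not particular to DGCR8. The AGO3 window had 80% and 50, a PRKRA window 79% and 42, and that of XPO5, which did not pass the test, 71.7% and 41. The lowest, a DICER1 window, had 34% and 0. The E2F-type words TTTGGCGC, TTTCCCGC and TTTCGCGC, searched on both strands, had no match in the 17 windows, and 2.74% of all promoters held at least 1 of them. The words CCGGAAGT and GCGCATGC, held by 4.14% and 3.05% of all promoters, had no match either, which says only that these letters are not in these windows.

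The genes that assist the Microprocessor, edit or tail precursors, or carry them out of the nucleus gave a share of calls near that of all genes. Of 31 tested (32 listed), 2 were higher and 4 were lower (19.4% passed, against 17.3% of all genes), with a median log2 fold change of -0.05. DDX5, the p68 helicase that joins the Microprocessor, went from 1057 ± 85.4 to 750 ± 42.8 CPM (SD, n = 3, log2 fold change -0.50, edgeR adjusted p = 0.00517). The splicing factors SRSF7 (-0.45, edgeR adjusted p = 0.00443) and SRSF3 (-0.38, edgeR adjusted p = 0.0181) and the cap-binding subunit NCBP1 (-0.25, edgeR adjusted p = 0.0406) were also lower. LIN28B, which binds let-7 precursors, rose from 53.7 ± 5.61 to 70.4 ± 6.20 CPM (SD, n = 3, log2 fold change 0.39, edgeR adjusted p = 0.0272). TUT7, an enzyme that adds uridines to such precursors, rose from 34.8 ± 4.69 to 45.1 ± 2.38 CPM (SD, n = 3, log2 fold change 0.37, edgeR adjusted p = 0.0419). The calls of LIN28B and TUT7 were each lost in 5 alternative fits. LIN28A had 0 counts in every library.

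Of 25 genes for chaperones and other proteins that load, modify or degrade Argonautes, 3 were higher and 4 lower (28% passed, against 17.3% of all genes), with a median log2 fold change of -0.06, and 2 passed at 2-fold, both lower (2.82% of all genes passed at 2-fold in either direction). PTGES3, which encodes the HSP90 co-chaperone p23, fell from 729 ± 121 to 327 ± 22.6 CPM (SD, n = 3, log2 fold change -1.16, edgeR adjusted p = 0.000575). TRIM71, a ubiquitin ligase of let-7 biology, had 57, 70 and 67 counts in the controls and 32, 21 and 30 in the knockdown libraries (log2 fold change -1.37, edgeR adjusted p = 0.00747). The HSP40 gene DNAJB1 (-0.55, edgeR adjusted p = 0.00627) and TSNAX, which encodes a subunit of the C3PO nuclease (-0.36, edgeR adjusted p = 0.0277), were lower too. P4HA1, a subunit of the prolyl hydroxylase that modifies AGO2, rose from 60.6 ± 4.70 to 100.3 ± 3.79 CPM (SD, n = 3, log2 fold change 0.73, edgeR adjusted p = 0.000687). ANKRD52, of the phosphatase complex that acts on AGO2 (0.42, edgeR adjusted p = 0.0128), and the import receptor IPO8 (0.33, edgeR adjusted p = 0.0193) rose as well. The HSP90 genes HSP90AA1 (0.09) and HSP90AB1 (0.11) did not pass the test.

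Of 37 genes for the proteins that act after Argonaute (GW182 proteins, deadenylases and decapping factors), 4 were higher and 5 lower (24.3% passed, against 17.3% of all genes), with a median log2 fold change of 0.05. The scaffold genes TNRC6A, TNRC6B and TNRC6C differed in sign. TNRC6C fell from 43.6 ± 3.92 to 28.0 ± 3.44 CPM (SD, n = 3, log2 fold change -0.64, edgeR adjusted p = 0.00597), TNRC6A was lower by a smaller amount (-0.27, edgeR adjusted p = 0.0351), and TNRC6B had a log2 fold change of 0.32 that did not pass (edgeR adjusted p = 0.0586). CNOT3, a subunit of the CCR4-NOT deadenylase, fell from 61.0 ± 7.73 to 37.4 ± 1.42 CPM (SD, n = 3, log2 fold change -0.70, edgeR adjusted p = 0.00230). LSM14A (-0.39, edgeR adjusted p = 0.00406) and the helicase gene MOV10 (-0.30, edgeR adjusted p = 0.0116) were lower. The decapping genes DCP1A (0.39, edgeR adjusted p = 0.0116) and DCP1B (0.63, edgeR adjusted p = 0.0324), EIF4A2 (0.41, edgeR adjusted p = 0.0360) and FMR1 (0.32, edgeR adjusted p = 0.04999) were higher.

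Of 19 tested genes of the PIWI clade and of other double-stranded RNA-binding proteins (22 listed), 3 were higher and 0 lower. The share that passed was 15.8%, against 17.3% of all genes (8.59% higher and 8.75% lower), and the median log2 fold change was 0.06. The cytoplasmic RNA sensors DDX58 (RIG-I) and DHX58 (LGP2) were present at low levels, DDX58 with 105, 85 and 79 counts in the controls and 172, 172 and 188 in the knockdown libraries. DDX58 had a log2 fold change of 0.85 (SE 0.17, edgeR adjusted p = 0.0116). DHX58 had 35, 30 and 16 counts in the controls and 74, 40 and 80 in the knockdown libraries (log2 fold change 1.12, edgeR adjusted p = 0.0398). EIF2AK2, the gene for PKR, had a log2 fold change of 0.06 and did not pass (edgeR adjusted p = 0.635). HENMT1, which methylates piRNA ends, rose (0.34, edgeR adjusted p = 0.0346). PIWIL1 and PIWIL3 had 0 counts in every library, and PIWIL2, at 39.9 ± 4.14 and 45.4 ± 1.40 CPM (SD, n = 3, edgeR adjusted p = 0.183), did not pass. PIWIL4 had 42, 66 and 50 counts in the controls and 101, 74 and 48 in the knockdown libraries. It did not pass either (log2 fold change 0.38, edgeR adjusted p = 0.461). Of the genes named from these lists, NCBP1, TNRC6A, DCP1B, FMR1, DHX58 and HENMT1 lost their call in 6 alternative fits. The call was lost in 5 fits for LIN28B, TUT7 and EIF4A2, and in 4 for IPO8 and TSNAX. SRSF3 and MOV10 lost it in 2, ANKRD52 and DCP1A lost it in 1, and TNRC6B, not called above, passed in 4.

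**Figure D5:**
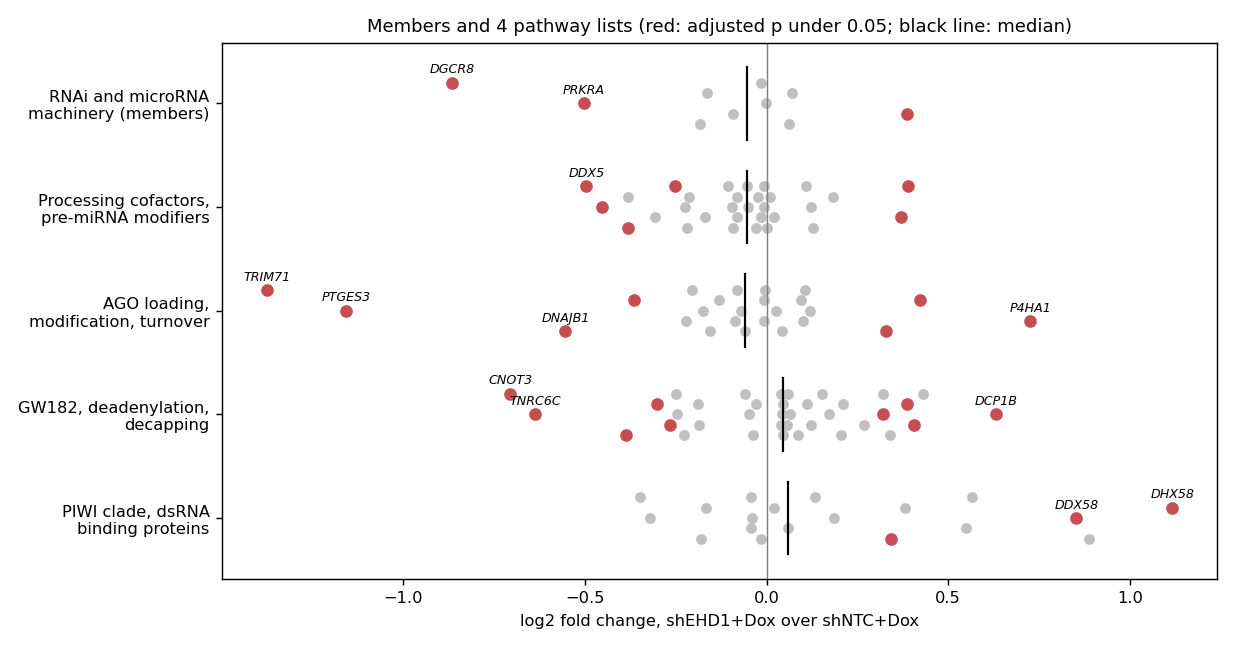
Each row plots the log2 fold changes (horizontal axis, shEHD1+Dox over shNTC+Dox) of the tested genes of 1 list, with red points for an adjusted p under 0.05, grey points for the rest and a black line at the median, and points are spread vertically for legibility alone. The medians of the members and of the 4 lists lay between -0.06 and 0.06, and 3 to 9 genes were called in each row.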

How the data were processed

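The deposited file is a table of raw counts per gene and library, made by the authors and not normalized. Per the paper's methods, libraries were made with the TruSeq RNA Library Prep Kit v2, sequenced as paired reads, aligned to hg38 with hisat2 and Ensembl annotation and quantified with StringTie, with DESeq2 for the authors' own calls. The submitters' processing notes list STAR 2.7.3a and DESeq2 instead, and which aligner made the table could not be settled. Of 60676 genes, 29676 had no count in any library. 60357 gene identifiers (99.5%) were found in GENCODE 44, which gave coordinates, exons and 3′ UTRs.

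A gene was kept when 3 or more libraries held 10 or more of its counts (16785 genes). Counts were scaled by TMM and tested with the robust quasi-likelihood test of edgeR 4.0.16 (R 4.3.3), 3 libraries against 3, two-sided, with Benjamini-Hochberg adjustment over all genes tested. Values per library are CPM with TMM scaling, and fold changes are on the log2 scale. Typical variation between replicates was 15.0%. An exact permutation test of a single gene with 3 libraries against 3 cannot give a p below 0.1 and was not used for calls. Alternatives were DESeq2 1.42.0 (its size factors and its Wald test), other filters, a replicate block, each library left out and another gene length. The tests were checked on simulated counts. The replicate numbers showed no pairing of the libraries, the correlations of same-numbered deviations being 0.0720, -0.0593 and -0.0448. With 3 libraries per group these values cannot show that the libraries were unpaired. Promoters and mature microRNAs came from RefSeq. The 3 largest rises and 3 largest falls that passed in each pathway list were named, with any list member past 2-fold, the PIWIL genes, neighbours of the Argonaute row that passed and overlapping genes, and LIN28A, EIF2AK2, TNRC6B, HSP90AA1, HSP90AB1, NCBP1, TSNAX, TNRC6A, MOV10 and FMR1 were added after their values were seen. Of the overlapping genes not given above, DICER1-AS1 (log2 fold change 0.65, edgeR adjusted p = 0.216), PJVK (-0.19, edgeR adjusted p = 0.648) and AC023509.3 (0.0020, edgeR adjusted p = 0.998) did not pass. AL139286.2, AC067931.1 and AL138787.2 had too few counts to test. The members and lists were chosen with earlier results of these data known.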

Additional observations from a re-analysis of the deposited data

How the results depend on the processing

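Over 11 alternatives for each of the 10 members, 110 values in all, 96 kept their direction and their side of the threshold, 7 lost a call, 7 turned direction and 0 gained a call. The lost calls were all of DGCR8 or AGO3. With a replicate block the numbers of called genes fell to 1766 at an adjusted p under 0.05 and to 1 in the PIWI and double-stranded RNA-binding list. The fitted log2 change of DGCR8 was then -0.86 (edgeR adjusted p = 0.0511). Whether the numbers pair the libraries is not known. The fold change of AGO4 turned from -0.0019 to 0.0044 with DESeq2 size factors and to 0.015 with no filter on low counts, both beside 0.

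Leaving out each library in turn, 299 to 470 genes were called at 2-fold and 1299 to 3615 at an adjusted p under 0.05, with fewer libraries in each fit. The members called numbered 1 to 3, and PRKRA was the single call without shEHD1+Dox replicate 3. The lists gave 2 to 7 calls for processing cofactors, 4 to 7 for AGO loading, 3 to 11 for GW182 proteins and decapping and 1 to 4 for the PIWI clade. Log2 fold changes ranged from -1.04 to -0.68 for DGCR8, 0.33 to 0.45 for AGO3, -0.062 to 0.031 for AGO1, -0.050 to 0.057 for AGO4 and -0.067 to 0.13 for DICER1, and among members that kept their direction from -0.26 to -0.06 for TARBP2, -0.27 to -0.08 for DROSHA and -0.16 to -0.035 for AGO2. Among overlapping genes they were -0.0045 to 0.053 for CHROMR, -0.35 to 0.39 for AC023509.3 and -0.19 to 0.028 for POLR1C. Those of EIF2AK2 were -0.010 to 0.095. The other 42 genes with alternative fits gave 460 values, of which 379 were kept, 70 lost a call, 6 turned direction and 5 gained a call. The causes of these changes were not tested. With the longest transcript as the length, 8 of the 10 levels per length moved by more than 1 SD. Counts of 791 to 5756 per library lay behind the members.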
